A study of Mus musculus with 12 samples.

Results

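Histone genes were followed in midbrain astrocytes of mice with 2, 1 or no working copies of *Cd38*, which encodes a major NAD-consuming enzyme of the cell surface. A row of the expression table counted as a histone gene when its symbol followed the histone naming scheme (H1f, H2ac, H2bc, H3c, H4c, H2az, H3f or macroH2a, or an older Hist name), and 74 of 20614 rows did. Of these, 47 were kept because their mean over all 12 libraries was at least 1 TPM (transcripts per 1000000 transcripts, a level corrected for transcript length). The set was therefore chosen by measured level, and *H4c8* and *H3c13* were also singled out beforehand for being lower in the mutants, so their levels against Cd38+/+ are a description without a test. *H3c7* (1.01 TPM) and *H1f5* (1.15 TPM) lay just inside the threshold, and *H2ac13* (0.932 TPM) and *H2bc9* (0.928 TPM) just outside it. The 27 histone symbols below the threshold included 3 listed at 0 in all libraries.

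Astrocytes were taken from male mice 12 to 14 months old, with a mean of 13.5 months, on a C57BL/6J background. The groups were Cd38+/+ (3 libraries), Cd38+/- (3 libraries) and Cd38-/- (6 libraries), the mutant allele being the global B6.129P2-Cd38tm1Lnd/J knockout, which acts in all cells and throughout development. Dissected striatum, thalamus and substantia nigra made up the starting tissue. Cells were caught with beads against ACSA-2, an astrocyte surface antigen, after endothelial cells, myelin with oligodendrocytes, and CD11b-positive microglia had been removed. In these bulk samples, fewer cells of a type and less RNA per cell cannot be told apart. No label named a batch.

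Histones are the proteins around which nuclear DNA is wound: H2A, H2B, H3 and H4 form the nucleosome core, and H1 binds the linker DNA between cores. Replication-dependent histone genes lie in clusters, mostly lack introns, and are transcribed chiefly during DNA synthesis. Their mRNAs end in a conserved stem-loop instead of a poly(A) tail, although some of these genes also make polyadenylated transcripts in cells that no longer divide. Variant histone genes such as *H3f3a* and *H3f3b* (histone H3.3), *H2az1* and *H2az2* (H2A.Z) and *Macroh2a1* lie alone, make polyadenylated mRNA, and supply chromatin in non-dividing cells such as most adult astrocytes. The libraries were made with a kit that primes cDNA synthesis at poly(A), so transcripts ending in the stem-loop enter it poorly, and the levels below are of what such priming captured. The labels name polyA RNA as the molecule, whereas the study's methods mention depletion of ribosomal RNA, so how far RNA without a tail was represented is uncertain.

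The 47 members comprised 39 replication-dependent and 8 variant genes. By family, the replication-dependent members were 3 of H1, 7 of H2A, 11 of H2B, 8 of H3 and 10 of H4. In the GRCm38 annotation, 31 of them lay on chromosome 13 and 8 on chromosome 3, whereas the 8 variants were spread over 7 chromosomes. The 16-base histone stem-loop was present in an annotated transcript of 29 of the 39 replication-dependent members, in 0 of the 8 variants, and in 62 of 55450 annotated genes (0.112%). The stem-loops of 5 members are shown because they carry the ending that separates the 2 classes, with the stem and loop in capitals and 5 bases on either side. They lie in the exon of single-exon genes at chr13:23739512-23739527 (*H1f2*, plus strand), chr13:23531458-23531473 (*H4c8*, plus strand), chr13:22040966-22040981 (*H4c9*, minus strand), chr3:96246032-96246047 (*H2ac18*, plus strand) and chr13:23576244-23576259 (*H3c4*, plus strand).
H1f2: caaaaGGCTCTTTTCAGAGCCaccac
H4c8: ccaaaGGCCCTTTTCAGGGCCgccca
H4c9: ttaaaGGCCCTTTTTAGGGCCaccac
H2ac18: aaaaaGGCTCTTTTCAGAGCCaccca
H3c4: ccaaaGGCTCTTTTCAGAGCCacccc

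The form printed for *H1f2*, *H2ac18* and *H3c4* was held by 16 of the 29 members and the form printed for *H4c8* by 6. How far the annotated transcript ran past the stem-loop differed widely, from 3 to 2010 bases with a median of 155. The *H4c8* transcript (470 bases) ended 46 bases after it and that of *H2ac18* (586 bases) 35 bases after it. By contrast, *H1f2* (1560 bases) ran on for 840 bases and *H2bc6* (2480 bases) for 1861 bases. The *H1f2* transcript held the poly(A) signal AATAAA in the last 40 bases. So did 1 of the 3 annotated transcripts of *H2bc6*, not necessarily the one described here. Such a transcript was annotated for 10 of 39 replication-dependent members and 7 of 8 variants.

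Many replication-dependent genes are near copies of each other, which limits how reads can be divided among them. At least 50% of the 100-base windows of the transcript occurred in another annotated gene for 15 of 39 replication-dependent members and for 0 of 8 variants. The share was 100% for *H2ac18*, *H2ac19*, *H3c13* and *H3c14*, 61.6% for *H3c15*, 38.5% for *H4c8*, 12.1% for *H2bc6* and 5.07% for *H1f2*. Values of the first group are therefore uncertain gene by gene, and sums over copies are given beside them.

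Promoters were found in the RefSeq table for GRCm38.p6 for 37 of the 47 members (38 start sites, since *H2bc6* had 2). The TATA box letters TATAAA occurred on either strand within 250 bases upstream of the start in 15 of 30 replication-dependent and 1 of 8 variant windows, against 12.4% of all 32851 promoters. The letters CCAAT, bound by NF-Y in many promoters, occurred on either strand in 23 of 30 and 4 of 8 windows, against 33.8% of all promoters. The 100 bases before the start of 4 genes are printed as examples, namely both genes that the selection named, *H1f2* as a called gene and *H3f3b* as a variant with both mutants below Cd38+/+, with both motifs in capitals, 5′ to 3′ on the gene's own strand. Their places are chr13:23738707-23738806 (*H1f2*, plus), chr13:23530944-23531043 (*H4c8*, plus), chr3:96268554-96268653 (*H3c13*, plus) and chr11:116024505-116024604 (*H3f3b*, minus).
H1f2: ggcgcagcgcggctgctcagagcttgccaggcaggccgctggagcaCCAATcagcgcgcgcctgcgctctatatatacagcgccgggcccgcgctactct
H4c8: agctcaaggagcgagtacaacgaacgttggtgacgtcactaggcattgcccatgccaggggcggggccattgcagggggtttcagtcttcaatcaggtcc
H3c13: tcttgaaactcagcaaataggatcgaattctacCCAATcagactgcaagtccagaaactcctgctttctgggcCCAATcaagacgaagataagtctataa
H3f3b: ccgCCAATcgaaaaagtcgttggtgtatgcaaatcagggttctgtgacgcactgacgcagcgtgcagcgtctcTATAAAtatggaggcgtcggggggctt

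*Cd38* itself was 105 to 149 TPM in Cd38+/+, 90.4 to 90.8 TPM in Cd38+/- and 8.54 to 21.9 TPM in Cd38-/- libraries, so the order of the labels held in every library. The Cd38+/+ libraries stood apart from the rest in having 13160 to 13516 genes above 0 TPM, against 16160 to 16327 in Cd38+/- and 15920 to 17906 in Cd38-/-. All 10 astrocyte markers were detected in each genotype, and their summed level was 10425 to 14896 TPM in Cd38+/+, 15605 to 17506 TPM in Cd38+/- and 11998 to 15032 TPM in Cd38-/-. The 5 erythroid markers, led by globin genes, summed to 7770 to 34711 TPM in Cd38+/+, 3228 to 6453 TPM in Cd38+/- and 3805 to 15378 TPM in Cd38-/-, with none of them at 0 throughout a genotype. The 5 choroid plexus markers summed to 45.6 to 305 TPM, 197 to 7293 TPM and 221 to 1935 TPM in the same order, with *Kl* at 0 in every Cd38+/+ library. Oligodendrocyte markers summed to 802 to 6561 TPM, 2543 to 10320 TPM and 2621 to 17200 TPM. For ependymal markers the sums were 2910 to 5692 TPM, 3005 to 3502 TPM and 3819 to 5997 TPM, so the libraries were not of astrocytes alone. By limma's test in Cd38-/- versus Cd38+/+, 2 of 10 astrocyte, 1 of 5 microglial and 4 of 5 choroid plexus markers were called, all higher, and 0 of 4 oligodendrocyte, 4 oligodendrocyte precursor, 6 endothelial, 5 ependymal, 5 neuronal and 5 erythroid markers, while no neuroblast marker was high enough to test. At an unadjusted p under 0.05 the last groups held 2 ependymal markers higher and 1 endothelial, 1 neuronal and 2 erythroid markers lower. In Cd38+/- versus Cd38+/+, 0 markers were called (limma), and at an unadjusted p under 0.05 there were 5 of 10 astrocyte, 4 of 5 choroid plexus, 1 microglial and 1 oligodendrocyte marker higher and 5 of 5 erythroid and 1 endothelial marker lower. The part of these differences in the histone values was not tested.

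The linker histone gene *H1f2* (ENSMUSG00000036181, chr13:23738808-23740367, plus strand), which encodes the somatic linker histone H1.2, decreased with *Cd38* loss. It was 134, 165 and 169 TPM in the Cd38+/+ libraries and 97.2, 98.5 and 104 TPM in the Cd38+/- libraries. In the 6 Cd38-/- libraries the lowest value was 62.3, the median 79.2 and the highest 89.4 TPM. No library of one genotype overlapped another, and the order was Cd38+/+ over Cd38+/- over Cd38-/-. Means ± SD were 156 ± 19.1 (n = 3), 100.1 ± 3.82 (n = 3) and 76.6 ± 9.85 TPM (n = 6), so the knockout mean was 49.1% and the heterozygous mean 64.1% of wildtype. Against Cd38+/+, the log2 fold change in Cd38-/- was -1.02 ± 0.15 (SE, limma, q = 0.00584), and *H1f2* passed the test in each of 9 fits that left out 1 library. With libraries weighted by their estimated quality it did not (limma, -0.93, q = 0.247), nor with the replicate number as a block (limma, -1.08, q = 0.318). The Cd38+/- difference was -0.63 ± 0.17 (limma, q = 0.176) and that between Cd38-/- and Cd38+/- was -0.39 ± 0.12 (limma, q = 0.2), so neither passed a q threshold of 0.05.

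**Figure D1:**
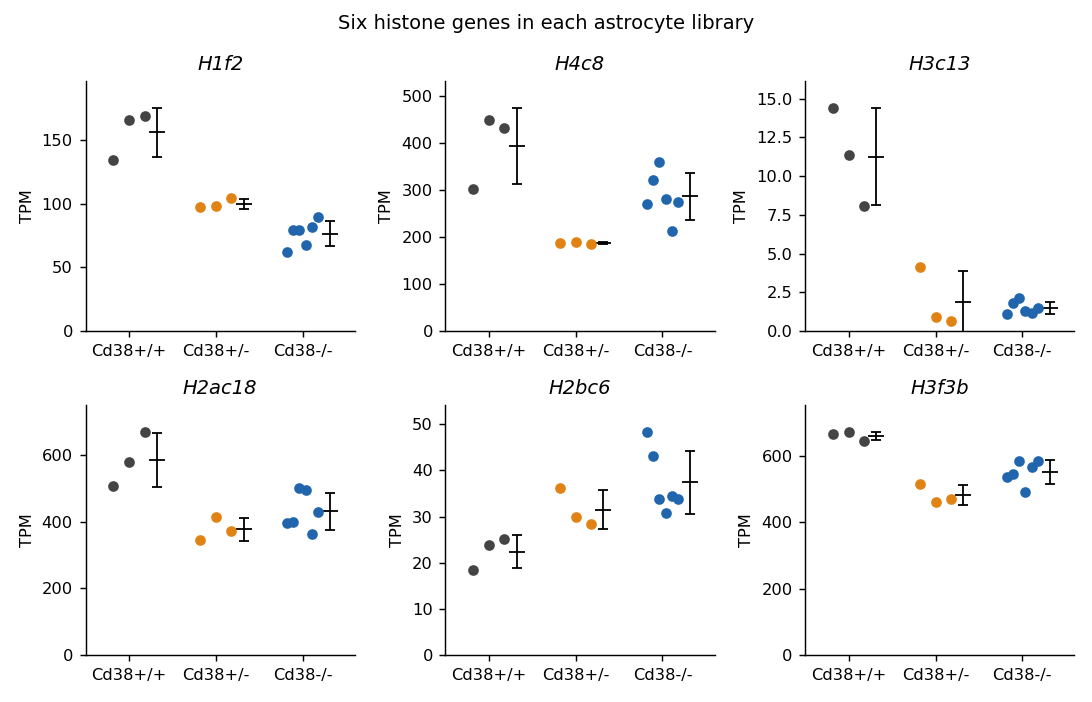
TPM (vertical axes, from 0) of 6 histone genes in each library, 1 point a library, by genotype; the black mark and bar beside each group are the mean and SD (n = 3, 3 and 6). For *H1f2* the 3 genotypes do not overlap, whereas for *H4c8* the Cd38-/- libraries (214 to 359 TPM) reach into the Cd38+/+ range (301 to 448 TPM).

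The rest of the linker histone family moved less evenly. *H1f0*, the H1.0 variant of differentiated cells, was 219, 185 and 164 TPM in Cd38+/+, 157, 176 and 179 TPM in Cd38+/-, and 151 to 213 TPM with a median of 172 in Cd38-/-, with overlap between all genotypes. *H1f10*, a less abundant variant, was 16.7, 20.8 and 15.2 TPM in Cd38+/+ and lower in both mutants, at 9.9, 14.1 and 12.9 TPM in Cd38+/- and 6.85 to 12.5 TPM in Cd38-/-, without passing the test (log2 fold change in Cd38-/- versus Cd38+/+ -0.74 ± 0.27, limma, q = 0.0723). Of all H1 message among the members, *H1f2* made up 35.5 to 43.5% in Cd38+/+, 32.3 to 34.8% in Cd38+/- and 25.5 to 28.5% in Cd38-/- libraries. The share of *H1f0* was 42.2 to 57.9%, 56.1 to 58.2% and 60.1 to 64.6% in the same order. *H1f5*, a replication-dependent H1 gene, had a listed level of 0 in each Cd38+/+ library, 0.54 to 2.01 TPM in Cd38+/- and 1.03 to 3.94 TPM in Cd38-/-.

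Among H4 genes, *H4c8* (ENSMUSG00000060981, chr13:23531050-23531519, plus strand) was the most abundant, and the pattern of its 2 mutants was not the same. It was 301, 448 and 432 TPM in Cd38+/+ and 188, 190 and 185 TPM in Cd38+/-. Cd38-/- libraries ran from 214 through a median of 278 to 359 TPM. Every Cd38+/- library was below every library of the other genotypes, while Cd38-/- lay between and overlapped Cd38+/+. The heterozygous mean was 47.7% and the knockout mean 72.7% of the wildtype mean, figures that its selection makes descriptive. Between Cd38-/- and Cd38+/-, the log2 fold change was 0.59 ± 0.14 (limma, q = 0.124), with no overlap but not past the threshold. The low mutant levels used to choose *H4c8* enter this contrast too, so it is also descriptive. *H4c8* made up 77.9 to 83% of the summed H4 message in Cd38+/+, 65.9 to 67.8% in Cd38+/- and 69.1 to 72.3% in Cd38-/-. The other 9 H4 genes together were at 61.7 to 122 TPM, 87.9 to 98.4 TPM and 95.7 to 137 TPM, ranges that overlapped.

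*H3c13* (ENSMUSG00000074403, chr3:96268654-96269141, plus strand), which encodes the replication-dependent H3 protein, was lower in both mutants with no overlap on its own, whereas its sum with its copies had lower means but overlapped. Its levels were 14.4, 11.3 and 8.09 TPM in Cd38+/+, 4.17, 0.89 and 0.67 TPM in Cd38+/-, and 1.11 to 2.11 TPM with a median of 1.4 in Cd38-/-. All Cd38+/+ libraries lay above all mutant libraries, and the mutant means were 17% (Cd38+/-) and 13.3% (Cd38-/-) of wildtype. Every 100-base window of its 488-base transcript also occurred in other genes, among them *H3c14* and *H3c15*. *H3c14* ran from 0.16 to 13.4 TPM within Cd38+/+, the widest ratio of any member above 0 in all libraries of that genotype, and *H3c15* from 8.02 to 43.6 TPM. Summed over the 3 genes, the levels were 66.5, 27.7 and 29.5 TPM in Cd38+/+, 24.4, 33 and 20.6 TPM in Cd38+/- and 12.2 to 28.8 TPM in Cd38-/-. Mean sums were 41.2 ± 21.9 (SD, n = 3), 26 ± 6.36 (n = 3) and 20.5 ± 6.48 TPM (n = 6), and the sums overlapped between Cd38+/+ and each mutant, unlike *H3c13* alone.

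**Figure D2:**
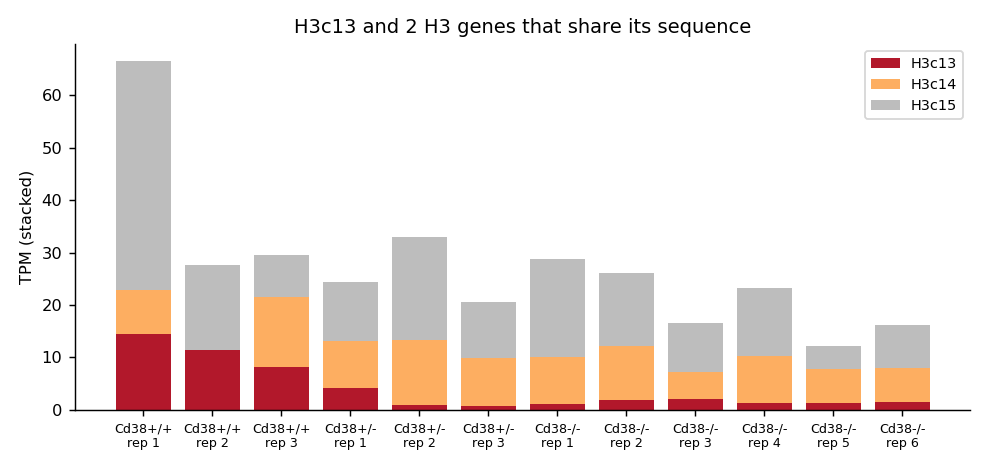
TPM of *H3c13*, *H3c14* and *H3c15*, stacked, in each of the 12 libraries (horizontal axis, by genotype and replicate). *H3c13*, at the base of each bar, is 8.09 to 14.4 TPM in Cd38+/+ and at most 4.17 TPM in the mutants, while the total heights overlap.

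For the core histone H2A, *H2ac18* and *H2ac19* are neighbouring copies whose transcripts shared all windows with other genes. *H2ac18* was 507, 579 and 672 TPM in Cd38+/+, 347, 413 and 372 TPM in Cd38+/-, and 365 to 501 TPM with a median of 415 in Cd38-/-. Both mutant genotypes lay wholly below Cd38+/+, and the decrease in Cd38-/- (log2 fold change -0.44 ± 0.14) passed the test (limma, q = 0.0479). *H2ac19* was 420, 355 and 513 TPM, then 274, 434 and 274 TPM, then 283 to 476 TPM, with overlap throughout. Their sum was 927, 934 and 1184 TPM in Cd38+/+ and 621, 847 and 646 TPM in Cd38+/-, without overlap, but reached 977 TPM in Cd38-/- (lowest 648), with overlap. The *H2ac18* call was lost without Cd38+/+ replicate 2 or 3 and without Cd38-/- replicate 1, 2, 5 or 6, at q = 0.0542 to 0.107 (limma). Removing the trend with transcript length and GC content brought the fold change to -0.23 (limma, q = 0.0905), and the call was also lost with Benjamini-Hochberg adjustment (limma, q = 0.0846) and with library quality weights (limma, q = 0.441).

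Among H2B genes, *H2bc6* (ENSMUSG00000047246, chr13:23583670-23621124, minus strand) moved the other way. It was 18.3, 23.8 and 25.1 TPM in Cd38+/+, 36.3, 29.8 and 28.5 TPM in Cd38+/-, and 30.7 to 48.5 TPM with a median of 34.2 in Cd38-/-. Both mutant genotypes lay wholly above Cd38+/+, and the increase in Cd38-/- (log2 fold change 0.71 ± 0.20) passed the test (limma, q = 0.0401). This call was lost without Cd38+/+ replicate 1 and without Cd38-/- replicate 1, 2, 3, 5 or 6, at q = 0.0536 to 0.101 (limma). It was also lost with the length and GC trend removed (limma, 0.47, q = 0.072) and with Benjamini-Hochberg adjustment (limma, q = 0.0709). Library quality weights (limma, q = 0.393) and the replicate number as a block (limma, q = 0.344) removed it too. *H2bc21*, an H2B gene on chromosome 3 that shared no window with another gene, was 17, 9.1 and 16.5 TPM in Cd38+/+, 22.4, 23.8 and 23.7 TPM in Cd38+/-, and 19.6 to 27.8 TPM in Cd38-/-. Its groups did not overlap with wildtype either, and the log2 fold change in Cd38-/- was 0.68 ± 0.24 (limma, q = 0.0708). *H2bc4*, the most abundant H2B gene with 74.8 to 90.6% of the H2B message in single libraries, was 426 to 462 TPM in Cd38+/+, 299 to 384 TPM in Cd38+/- and 296 to 427 TPM in Cd38-/-.

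Of the variants, *H3f3b*, 1 of 2 genes for histone H3.3, was lower in both mutants, whereas *H3f3a*, the other, was not. *H3f3b* was 665, 670 and 646 TPM in Cd38+/+, 514, 460 and 470 TPM in Cd38+/-, and 491 to 585 TPM with a median of 555 in Cd38-/-, with no overlap between wildtype and mutants. Short of the threshold, it had a log2 fold change of -0.46 ± 0.12 (limma, q = 0.176) with 1 copy of *Cd38* and of -0.26 ± 0.10 (limma, q = 0.0789) with none. *H3f3a* was 537, 908 and 782 TPM in Cd38+/+, 725, 765 and 698 TPM in Cd38+/-, and 780 to 906 TPM in Cd38-/-, and its Cd38+/+ range enclosed all other libraries. The 2 genes supplied 93.8 to 97.2% of all H3 message among the members in Cd38+/+, 96.8 to 97.6% in Cd38+/- and 96.8 to 98.7% in Cd38-/-.

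The H2A variants included both directions. *H2az1*, for histone H2A.Z, was 287, 314 and 262 TPM in Cd38+/+ and 209, 221 and 192 TPM in Cd38+/-, without overlap, and 211 to 279 TPM in Cd38-/-, with overlap. *H2az2*, its second gene, was 263, 247 and 284 TPM, then 176, 230 and 239 TPM, then 236 to 275 TPM. *Macroh2a1*, which encodes an H2A with a large additional domain, was 156, 156 and 127 TPM in Cd38+/+, 174, 161 and 157 TPM in Cd38+/- and 174 to 208 TPM in Cd38-/-. Every mutant library of *Macroh2a1* lay above every wildtype library, the knockout's log2 fold change being 0.35 ± 0.12 (limma, q = 0.0633). When the trend with transcript length and GC content was removed, its Cd38+/- difference turned from positive to -0.19. *H2az1* and *H2az2* together made up 27.2 to 31.5%, 29 to 32.9% and 29.6 to 32.7% of the H2A message in the 3 genotypes.

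As a class, replication-dependent message was lower in the mutants when summed, while the median difference gene by gene was above 0. The sum over the 39 genes was 2107, 2543 and 2644 TPM in Cd38+/+ libraries, 1497, 1521 and 1837 TPM in Cd38+/- libraries, and 1506 to 2220 TPM in Cd38-/- libraries. Cd38+/- lay wholly below Cd38+/+, while Cd38-/- overlapped it. The 8 variants summed to 2153 to 2545 TPM, 1970 to 2047 TPM and 2135 to 2414 TPM. The ratio of the 2 sums was 0.978 to 1.15 in Cd38+/+, 0.751 to 0.897 in Cd38+/- and 0.684 to 0.94 in Cd38-/-, with both mutants below every wildtype library. These sums were set by few genes, since the 6 most abundant replication-dependent genes made up 82.1 to 90.7% of the class in single libraries, and they include *H4c8*, which the selection named.

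**Figure D3:**
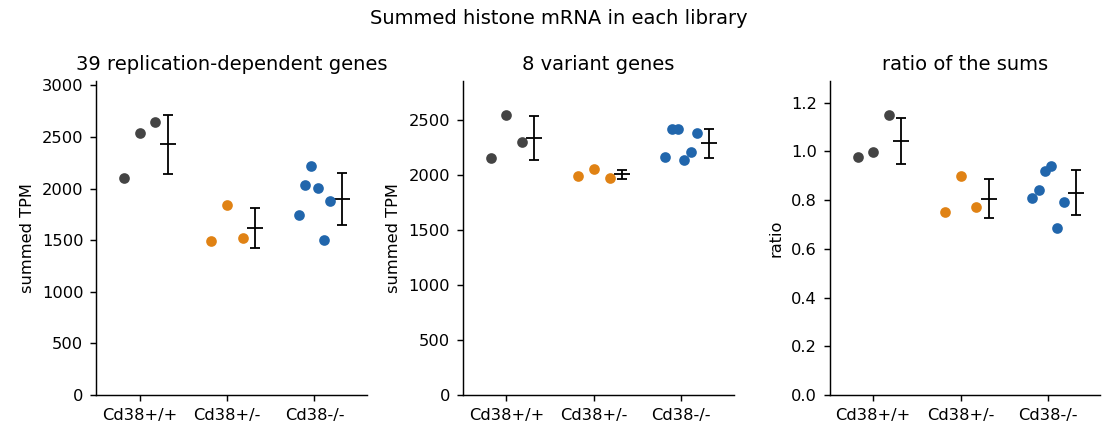
Summed TPM of the 39 replication-dependent genes (left), of the 8 variant genes (middle) and their ratio (right) in each library, by genotype, with mean and SD beside the points (n = 3, 3 and 6). The replication-dependent sum is 2107 to 2644 TPM in Cd38+/+ and 1497 to 1837 TPM in Cd38+/-, while the variant sums of Cd38+/+ and Cd38-/- overlap.

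Taken gene by gene on the log2(TPM + 1) scale, the median difference of the 39 replication-dependent members was 0.29 in Cd38+/- versus Cd38+/+ (23 positive, 16 negative) and 0.48 in Cd38-/- versus Cd38+/+ (26 positive, 13 negative). The 8 variants had medians of -0.22 (3 positive, 5 negative) and -0.07 (3 positive, 5 negative). Beside these, all 13652 genes with a mean of at least 1 TPM had medians of 0.21 and 0.19. The share of positive differences, 59% and 66.7% of the 39 members, was at or near that of all these genes, 65.7% and 65.9%. Within the replication-dependent class, the sign differed between high and low genes. Among the low ones, *H1f5*, *H2bc14*, *H3c4* and *H4c6* passed the 1 TPM threshold only through the mutants in which they are high. Medians of all genes split by level are not given here, so nothing particular to histone genes is read from this split. The 9 members at 20 TPM or more had medians of -0.41 (7 of 9 negative) and -0.27 (6 of 9 negative), and the 30 members under 20 TPM had medians of 0.48 (21 of 30 positive) and 0.63 (23 of 30 positive). A pseudocount of 5 in place of 1 moved the class medians to -0.02 and 0.18, and quantile normalization to -0.04 and 0.06. Without Cd38+/+ replicate 1, the heterozygous median was -0.05.

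**Figure D4:**
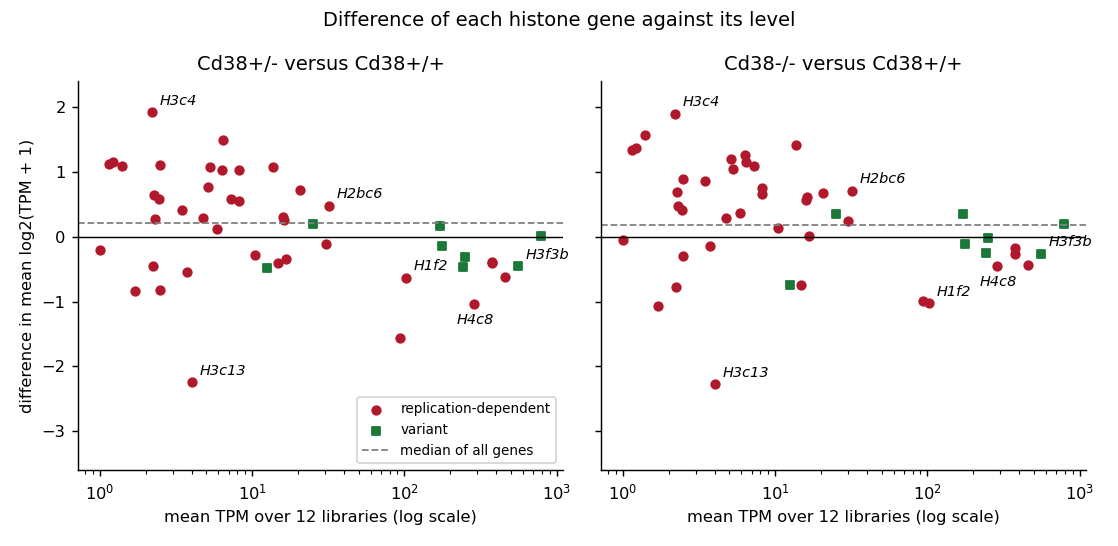
Difference in mean log2(TPM + 1) of each of the 47 members (vertical axis) against its mean TPM over 12 libraries (horizontal axis, log scale), for Cd38+/- and Cd38-/- versus Cd38+/+; circles are replication-dependent genes, squares variants, and the dashed line the median of all genes with a mean of at least 1 TPM. Replication-dependent genes above 20 TPM lie mostly below 0, with medians of -0.41 and -0.27, and those under 20 TPM mostly above it. Some of the latter passed the 1 TPM threshold only through the mutants.

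The low replication-dependent genes were listed at 0 far more often in Cd38+/+ than in the mutants. Of the 30 members under 20 TPM, 8, 9 and 9 were at 0 in the 3 Cd38+/+ libraries, against at most 1 in any mutant library. These counts include *H3c4*, *H4c6*, *H1f5* and *H2bc14*, which passed the 1 TPM threshold only through the mutants and so add to them by selection. In Cd38+/+, 16 of the 30 had a 0 in at least 1 library and 11 had both a 0 and a value above 5 TPM among the same 3 libraries. In Cd38+/- those counts were 1 and 0, and in Cd38-/- they were 2 and 0. Genes of 1 to 20 TPM in general showed the same difference: 29.1% had a 0 in at least 1 Cd38+/+ library, against 0.59% in Cd38+/- and 0.77% in Cd38-/-. Both a 0 and a value above 5 TPM occurred in 15.65%, 0.18% and 0.25% of them in the same order. *H4c3*, for example, was 10.6, 21 and 0 TPM in Cd38+/+ and 11.8 to 13.2 TPM in Cd38+/-. The median SD of log2(TPM + 1) over these 30 members, in the order wildtype, heterozygous and knockout, was 1.47, 0.34 and 0.40, beside 0.91, 0.28 and 0.32 over all genes of 1 to 20 TPM. No variant was at 0 in any library, and the variants' median SDs were 0.19, 0.10 and 0.14.

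**Figure D5:**
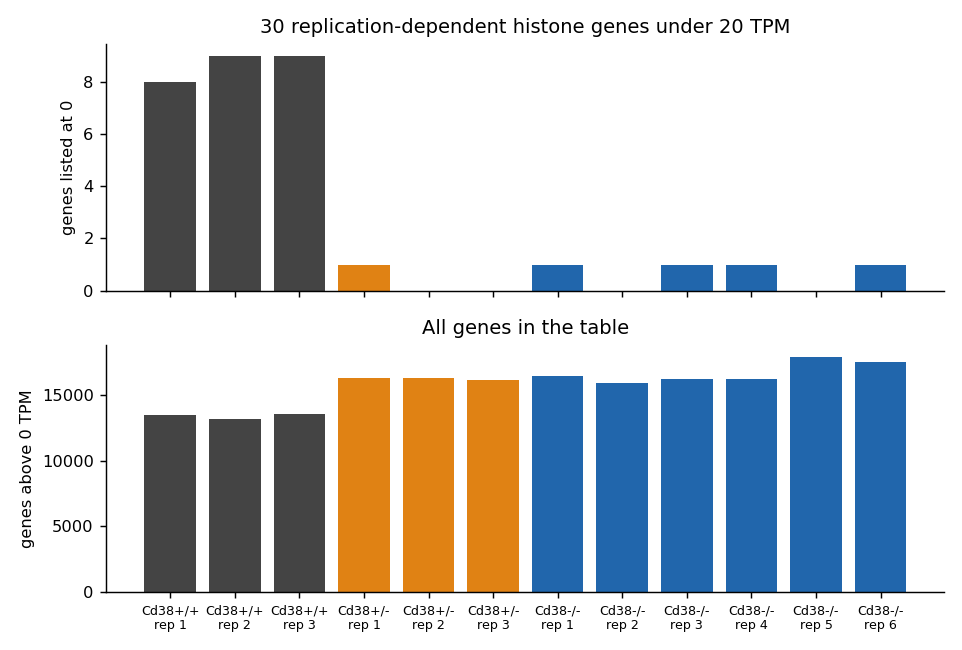
Number of the 30 replication-dependent genes under 20 TPM that are listed at 0 (upper panel) and number of all genes above 0 TPM (lower panel) in each library, by genotype and replicate. The 3 Cd38+/+ libraries have 8 or 9 of these genes at 0 and 13160 to 13516 genes above 0, whereas mutant libraries have at most 1 at 0. Some of the 30 genes passed the threshold of their selection only through the mutants.

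Because depth is unknown, a listed 0 may be a transcript missed. *H3c4* (H3), *H4c6* (H4) and *H1f5* (H1) were at 0 in all 3 Cd38+/+ libraries. *H3c4* was 4.21, 3.08 and 1.56 TPM in Cd38+/- and 1.4 to 4.8 TPM in Cd38-/-, and *H4c6* was 0.43 to 1.99 TPM and 0.81 to 4.3 TPM. *H2bc14* (H2B) was listed at 0.13, 0 and 0 TPM in Cd38+/+, 0.85 to 1.82 TPM in Cd38+/- and 1.11 to 2.6 TPM in Cd38-/-. *H4c12*, above 0 throughout, was 2.83, 2.12 and 2.54 TPM in Cd38+/+, 4.91 to 8.24 TPM in Cd38+/- and 3.99 to 16.2 TPM in Cd38-/- (log2 fold change 1.26 ± 0.43, limma, q = 0.0644). Within the mutants, the widest ratios among members above 0 were those of *H2bc3* in Cd38+/- (0.24 to 3.13 TPM) and *H2ac7* in Cd38-/- (0.82 to 6.45 TPM), both of which were 0 in 2 Cd38+/+ libraries. *H3c7*, at the threshold, was 0, 5.22 and 0 TPM in Cd38+/+ and 0.34 to 1.63 TPM in the mutants.

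Counted together, 8 of the 47 members (17%) had both mutant genotypes wholly above Cd38+/+, against 8.25% of the 13652 genes with a mean of at least 1 TPM, and 3 of those 8 were at 0 in every wildtype library. Of the 8, *H1f5*, *H2bc14*, *H3c4* and *H4c6* had Cd38+/+ means of at most 0.0433 TPM and so passed the 1 TPM threshold only through the mutants in which they are high, so that nothing is read from this count. The 8 were *H1f5*, *H2bc6*, *H2bc14*, *H2bc21*, *H3c4*, *H4c6*, *H4c12* and *Macroh2a1*. In 5 members (10.6%) both mutants lay wholly below, against 2.6% of all genes: *H1f2*, *H1f10*, *H2ac18*, *H3c13* and *H3f3b*. By single comparison, 9 members were wholly higher and 10 wholly lower in Cd38+/- than in Cd38+/+ (all genes, 16.1% and 6.2%), and 8 were higher and 5 lower in Cd38-/- (all genes, 9.44% and 3.26%). *H3c13* is in every one of these lower counts, and *H4c8* only in that of Cd38+/-. Both were selected for being lower, which raises these counts.

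The test across all genes called few members. A gene was called at a q under 0.05 (limma, Storey's q) with at least a 1.2-fold change, among genes with a mean above 5 TPM in at least 1 of the compared genotypes. In Cd38+/- versus Cd38+/+, 34 members were tested and 0 called, as were 0% of 11763 genes; at an unadjusted p under 0.05 there were 8 members, all lower, and 13.5% of all genes (1117 higher and 469 lower). Without *H4c8* and *H3c13*, which were selected for being lower, it was 6 of 32. In Cd38-/- versus Cd38+/+, 4 of 35 members tested were called, 1 higher (*H2bc6*) and 3 lower (*H1f2*, *H2ac18* and *H3c13*), against 8.28% of 11722 genes, of which 6.42% were higher and 1.86% lower. Without *H4c8* and *H3c13* it was 3 of 33 (9.09%), a share near the background. At an unadjusted p under 0.05 there were 6 members higher and 7 lower (5 lower without *H4c8* and *H3c13*), beside 23.6% of all genes (2065 higher and 702 lower). Of the 6, *H4c12*, *H4c14* and *H2ac6*, with Cd38+/+ means of 2.50, 2.96 and 2.67 TPM, passed the 5 TPM filter only through Cd38-/-. Nothing is therefore read from the number higher. Of the 8 variants 0 were called (limma), and 3 had an unadjusted p under 0.05. Leaving out 1 library moved the 4 calls to 7, 9 and 13 without Cd38+/+ replicates 1, 2 and 3, and to 2 without Cd38-/- replicate 1, 2, 5 or 6. Over all genes these fits called 1829, 1931 and 3119, then 112, 74, 93 and 154, in place of 970. The test by library quality weights called 0 members.

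Between the mutants, whose libraries had similar numbers of detected genes, the histone genes were on the whole slightly higher in Cd38-/- than in Cd38+/-. The median difference was 0.22 for the replication-dependent members (27 positive, 12 negative) and 0.19 for the variants (7 positive, 1 negative), against -0.02 for all genes with a mean of at least 1 TPM. The replication-dependent median was -0.00 once the trend with length and GC content was removed. Of 31 members tested 0 were called (limma), against 0.0346% of 11563 genes. At an unadjusted p under 0.05 there were 8 members (7 higher and 1 lower), against 11.2% of all genes (721 higher and 578 lower). Of the 7, *H2ac6*, with means of 4.59 TPM in Cd38+/- and 6.56 TPM in Cd38-/-, passed the 5 TPM filter only through Cd38-/-. *H4c8*, also among them, was chosen for low mutant levels. Nothing is therefore read from the number higher. With library quality weights limma called 17 members, beside 3120 of all 11563 genes. Without overlap, 4 of the 47 members (8.51%) were higher (*H4c8*, *H4c9*, *H2ac6* and *H3f3a*) and 1 (2.13%) was lower (*H1f2*), beside 2.65% and 2.56% of all genes. The 4 include *H4c8*, which was chosen for low mutant levels. In this contrast 4 of 5 ependymal markers were higher (median log2 fold change 0.67) and 5 of 10 astrocyte markers lower (median of the 10, -0.28) at an unadjusted p under 0.05, and their part in the histone values was not tested. *H4c9*, an H4 gene, was 23.7, 27.1 and 25.6 TPM in Cd38+/- and 27.2 to 38.2 TPM in Cd38-/- (log2 fold change 0.35 ± 0.12, limma, q = 0.254), while its Cd38+/+ libraries ran from 15.3 to 38.5 TPM.

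Histone genes that the symbol scheme missed were also looked at, because they include well-known variants. Of the 4 tested, *H2ax*, whose protein is phosphorylated at DNA breaks, was 92.8, 110 and 105 TPM in Cd38+/+, 53.9, 41.9 and 49.4 TPM in Cd38+/- and 43.3 to 63.1 TPM in Cd38-/-. It decreased in Cd38-/- (log2 fold change -0.996 ± 0.16, limma, q = 0.00897) and stayed called in each of 9 fits without 1 library, but not with library quality weights. *H2aj*, *H2aw* and *H2bu2* had log2 fold changes of -0.45 (q = 0.0551), -0.37 (q = 0.109) and -1.28 (q = 0.0541) in limma's test.

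Among genes that process or handle histones, 6 were called in Cd38-/- versus Cd38+/+, all higher. Among 24 tested genes of histone mRNA 3′ end processing and histone gene transcription, 3 (12.5%) were called higher and 0 lower, against 6.42% and 1.86% of all genes. These were *Ncbp1*, a cap-binding subunit (10.2 to 18.8 TPM in Cd38+/+ and 27.5 to 36 TPM in Cd38-/-), *Nelfe*, a subunit of the NELF pausing complex (31.3 to 62.4 and 69.6 to 83.1 TPM), and *Eri1*, an exonuclease that trims the histone stem-loop (0 to 4.24 and 4.66 to 7.86 TPM). *Slbp*, which encodes the stem-loop binding protein, was 35.1 to 60.4 TPM in Cd38+/+, 49.4 to 57.9 TPM in Cd38+/- and 45.1 to 52.3 TPM in Cd38-/-, with overlap. Of 30 tested chaperones and exchange factors, 3 (10%) were called higher and 0 lower, namely *Anp32e*, which removes H2A.Z from chromatin (log2 fold change 1.04, limma, q = 0.015), *Set* (0.60, q = 0.0224) and *Mcm2* (2.28, q = 0.0295). *Eri1* and *Mcm2*, with Cd38+/+ means of 1.41 and 1.62 TPM, passed the 5 TPM filter only through Cd38-/-, in which they are high. Nothing is therefore read from the shares of the 2 lists. Of these 6, *Nelfe*, *Eri1*, *Set* and *Mcm2* were lost without Cd38-/- replicate 1, 2, 5 or 6 (*Eri1* also without replicate 3), *Ncbp1* was lost without Cd38-/- replicate 2, and *Anp32e* held without any 1 library. All 6 were lost with library quality weights, *Set* also with the length and GC trend removed, and *Eri1* and *Mcm2* also with Benjamini-Hochberg adjustment. Of 31 listed genes of DNA replication and cell division, 16 were tested and 0 called in Cd38-/- versus Cd38+/+ (limma). By the same test, 0 were higher and 3 lower at an unadjusted p under 0.05. The other listed genes did not pass the 5 TPM filter, so these counts do not cover them. *Mcm2* was counted with the chaperones, whereas *Mcm3* to *Mcm7* were counted here. *Mki67*, a marker of dividing cells, was 0 to 6.11 TPM in Cd38+/+, 0.27 to 0.46 TPM in Cd38+/- and 0.14 to 2.01 TPM in Cd38-/-, and *Pcna*, the replication clamp, was 41.9 to 49.3, 34.5 to 38.3 and 34.4 to 45.6 TPM. Untested low genes of this list differed in both directions. *Plk1* was 0 in every Cd38+/+ library, then 2.17 to 2.8 and 1.7 to 7.18 TPM. *Ccnb1* was 0 to 0.05, 1.25 to 2.6 and 1.01 to 8.46 TPM. By contrast, *Birc5* had means of 4.39, 1.73 and 2.46 TPM in the same order. In Cd38+/- versus Cd38+/+ and between the mutants, 0 genes of these 3 lists were called (limma). At an unadjusted p under 0.05 there were 2 higher and 2 lower, 4 higher and 1 lower, and 0 higher and 1 lower in the former, and 3, 3 and 0 higher with 0 lower in the latter.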

How the data were processed

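RNA was sequenced as paired-end 100-base reads after SMART-Seq v4 cDNA synthesis. Per the study's methods and processing notes, the authors trimmed reads with Trim Galore 0.6.4, aligned them to mm10 with STAR 2.7.1a and quantified genes with RSEM 1.2.28; the annotation is not given in the sources used here. The deposited values are TPM, which sum to 1000000 in each library, so read depth is unknown and no counting interval can be given. Genes with a mean above 5 TPM in a compared genotype were tested on log2(TPM + 1) with limma 3.58.1 (R 4.3.3, trended variance) and called at Storey q under 0.05 with at least 1.2-fold change. Fold changes on this scale understate changes of low genes. The script was tested on simulated data. Transcripts were those of GENCODE on GRCm38; a window was 100 bases on either strand. Figures used matplotlib 3.10.9.

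The members and gene lists were chosen with earlier results of these data known. Genes named were *H4c8* and *H3c13*, the 4 most abundant members of each class, every member called, every member with both mutants wholly above or below Cd38+/+, those at the threshold, and the widest range within each genotype among members above 0. *H1f0*, *H4c3*, *H4c9*, *H4c14*, *H3c15*, *H2ac6* and the listed non-members were added after their values were seen. Labels do not tie libraries to single animals, so p-values measure the spread between libraries. Alternatives changed the pseudocount, filter, adjustment, variance model, scaling, libraries and block.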

Additional observations from a re-analysis of the deposited data

Results flagged for a closer look

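Among 53 sets of 6 Cd38-/- values examined (47 members and 6 sums), 4 had 1 library far from the other 5, where chance alone would flag about 1 set in 20. *H2bc8*, an H2B gene, was 2.47 TPM in Cd38-/- replicate 5, below the rest by 0.686 of the group's range. *Hist1h2bp*, another H2B gene, was 0.81 TPM in the same library, a gap of 0.731 of the range. *H2ac7*, an H2A gene, was 6.45 TPM in Cd38-/- replicate 1, above the rest by 0.648 of the range. *H1f5*, an H1 gene, was 3.94 TPM in Cd38-/- replicate 2, a gap of 0.825 of the range. All 4 genes had means under 20 TPM.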

How the results depend on the processing

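Number of histone members called: in Cd38+/- versus Cd38+/+ it was 0 in the main analysis and without any 1 library, 5 with no filter on low values, 1 with library quality weights and 8 with all 12 libraries in 1 fit. Over all genes, no filter, quality weights and all 12 libraries in 1 fit called 663, 30 and 1464. In Cd38-/- versus Cd38+/+ the 4 calls became 10 with no filter, 2 with Benjamini-Hochberg adjustment, 0 with library quality weights, 10 with all 12 libraries in 1 fit, and 2 to 13 without 1 library. Between Cd38-/- and Cd38+/- they were 0, and 17 with library quality weights, where 3120 of 11563 genes were called. The other alternatives stayed within 1.5 times, but not always with the same genes: in Cd38-/- versus Cd38+/+, removal of the length and GC trend called *H3f3b*, *H2bc4*, *H1f2*, *H4c12* and *H3c13*, and Benjamini-Hochberg adjustment left *H1f2* and *H3c13*. Over all genes, the 970 calls in Cd38-/- versus Cd38+/+ (752 higher, 218 lower) became 326 with Benjamini-Hochberg adjustment, 2283 with no filter, 1822 with all 12 libraries and 1 with quality weights; the split was 551 higher and 390 lower with median-ratio scaling, 577 and 387 with quantile normalization, and 434 and 971 with the length and GC trend removed. The cause was not tested.

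Replicate numbers did not pair the libraries: correlations between same-numbered libraries were -0.0037 to 0.0439 (Cd38+/- versus Cd38+/+), -0.094 to -0.035 (Cd38-/- versus Cd38+/+) and -0.327 to 0.462 (Cd38-/- versus Cd38+/-). With the number as a replicate block, 0 members were called in Cd38-/- versus Cd38+/+, also with the length and GC trend removed, and 2 (*H1f2* and *H4c8*) between the mutants with that removal. This fit in effect drops Cd38-/- replicates 4 to 6. *H2bc21* turned to 0.026 between the mutants under the block.

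Median log2 differences: the replication-dependent median in Cd38+/- versus Cd38+/+ (0.29) became 0.76 with a pseudocount of 0.1, -0.021 with 5, -0.042 with quantile normalization and -0.045 to 0.50 without 1 library. In Cd38-/- versus Cd38+/+ (0.48) it became 0.89, 0.18 and 0.059 under the same 3 settings, and between the mutants -0.0049 with the length and GC trend removed. The variant median became -0.36 and -0.19 with median-ratio scaling in Cd38+/- and Cd38-/- versus Cd38+/+, and -0.21 in the latter with the trend removed.

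Single genes that changed sign were all uncalled. With the length and GC trend removed, between the mutants, *H2bc4* was -0.082 (-0.059 with the block), *H2az1* -0.0025 and *H4c12* -0.045. Against Cd38+/+, *H2ac19* was 0.012 in Cd38+/- and 0.044 in Cd38-/- (0.012 and 0.14 with the block), *H3f3a* -0.21 and -0.072 (-0.21 and -0.060), and *Macroh2a1* -0.19 in Cd38+/- (-0.19). In Cd38+/-, *H3f3a* was -0.0066 with quality weights and -0.13 with median-ratio scaling. Without 1 library, *H3f3a* ran from -0.21 to 0.17 in Cd38+/- and -0.017 to 0.36 in Cd38-/-, *H2az2* from -0.074 to 0.027 in Cd38-/-, and *H3c14* from -0.085 to 1.73 in Cd38+/- and -0.46 to 1.36 in Cd38-/-.

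Depth is unknown for these TPM values, so a listed 0 in the low replication-dependent genes cannot be bounded. With 3 Cd38+/+ libraries of fewer detected genes, genotype and library quality cannot be told apart for those genes. The same limit holds for more abundant genes, among them *H1f2*, *H2ac18*, *H3f3b* and *H2ax*. Over all genes of 20 TPM or more, wildtype libraries had a median SD of log2(TPM + 1) of 0.388. The heterozygous and knockout medians were 0.172 and 0.199. Library quality weights left 1 of the 970 calls between knockout and wildtype. Poly(A) priming, and an uncertain input of polyA or rRNA-depleted RNA, limit what is known of transcripts ending in the stem-loop, and copies that share sequence can exchange reads.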
